A study of Homo sapiens with 4 samples.

Results

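The response of LIM1215 cells to an siRNA against TMEM161A was measured by comparing their transcriptome with that of LIM1215 cells given a control siRNA. The members were the protein-coding genes with a mean FPKM (a fragment count scaled by gene length and by the depth of the library) of at least 1 over these 2 libraries, which left 12200 of the 60658 Ensembl identifiers listed, and of the 19580 that were annotated as protein-coding. LIM1215 and HT29 are established human colorectal cancer cell lines, and LIM1215 is known as a line with deficient mismatch repair. The 4 groups were LIM1215 with the negative control siRNA, LIM1215 with the TMEM161A siRNA, and the same pair in HT29, with 1 library each. No group had a replicate, so no p-value is given, and a fold change describes 2 cultures. The pair labelled HT29 is set beside LIM1215 only to show the same gene in other cells. The labels give no dose, no time after transfection and no sequence of either siRNA.

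TMEM161A encodes a transmembrane protein whose molecular role is little known, and the study asked how it bears on the growth of colorectal cancer. Several pathways described here have well known parts. The endoplasmic reticulum (ER) folds secreted and membrane proteins with chaperones whose genes are induced by the unfolded protein response, through the transcription factors ATF6 and XBP1 and, by another arm, ATF4. Dividing cells switch on replication genes through the E2F factors at the start of S phase, while p53 switches on inhibitors of the cell cycle such as CDKN1A. Colon epithelial cells also secrete mucins and chemokines and are joined by tight junctions.

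Each gene was given the log2 ratio of knockdown to control after 1 was added to both FPKM values, which shrinks the ratio of scarce genes. A gene is said to rise or fall here only when this ratio was at least 1 in size, that is, past 2-fold. A signed value in brackets after a pair of FPKM values is this log2 ratio. The targeted gene was examined first, to check the labels. TMEM161A itself (ENSG00000064545; chromosome 19, 19119169 to 19138513, minus strand, GRCh38 with GENCODE release 44) had 39.1 FPKM in control and 7.61 in knockdown cells. The knockdown level was 19.4% of control, with a 95% counting interval (exact Clopper-Pearson, counting error only) of 17.1% to 21.9%, and a log2 ratio of −2.22. The fall went with the labels. Its paralog TMEM161B (chromosome 5, 88189633 to 88269476, minus strand) had 11.5 FPKM in control and 7.60 in knockdown cells, a log2 ratio of −0.53, short of the threshold.

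An FPKM of 1 stood for an estimated 18.07 fragments per kilobase in the LIM1215 control and 20.28 in the knockdown library, and for 21.21 and 21.54 in the HT29 libraries. All 11 markers of intestinal epithelium examined exceeded 1 FPKM in both LIM1215 libraries, with a summed FPKM of 8212 in control and 10158 in knockdown cells. In the libraries labelled HT29 only 6 of the 11 did so in either library: KRT20, CDX1, VIL1, LGALS4 and HNF4A lay under 1 FPKM there. VIL1 and LGALS4 are known to be expressed in HT29, so these values go against the label. The identity of that line was not tested, and HT29 stands below for the libraries labelled so. Of the markers of other cell types, none of 4 for endothelium and 1 of 7 for fibroblasts (COL1A1, 4.83 and 8.56 FPKM) exceeded 1 FPKM in the LIM1215 libraries, and COL1A2 and LUM were listed at 0. Of 6 leukocyte markers, CD68 (58.1 and 72.2) and LYZ (1.04 and 2.13) did, while PTPRC, CD3E and MS4A1 were listed at 0. The haemoglobin genes HBA1 (38.2 and 25.7) and HBA2 (32.03 and 33.6) were present without HBB, which was listed at 0. The 13 protein-coding genes of the mitochondrial genome held 16.4% of the summed FPKM in control and 14.7% in knockdown cells. Whether any of these levels bears on the changes below was not tested.

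Rises and falls in LIM1215 were nearly balanced with the FPKM as deposited. Of the 12200 genes, 103 rose and 114 fell past 2-fold, 0.844% and 0.934% of the genes compared. With ratios centred on the median gene, 93 rose and 130 fell. At 1.5-fold the shares were 5.39% higher and 5.03% lower. The median log2 ratio over all 12200 genes was 0.02, and 53.2% of them lay above 0, so the ratios below are read against a centre close to 0. Genes past 2-fold were lowly expressed in both directions. Genes that rose had a median of 3.33 FPKM in control and 9.07 in knockdown cells, against 17.6 FPKM in the control over all genes. Genes that fell had a median of 8.41 FPKM in control and one below 3.33 in knockdown cells, nearly the mirror image. Choosing genes by their ratio favours a low control level among rises and a low knockdown level among falls. The lower median of each pair therefore partly follows from the rule. Among the 2598 genes with a mean of at least 50 FPKM, 7 rose and 15 fell. In 2 genes that rose the control was listed at 0, and in 4 that fell the knockdown library was, so that these passed the filter through 1 library alone. The filter itself cut between NELL1 and LRRC69, with means of 0.996 and 0.997 FPKM, which were left out, and FGF9 and ELAPOR1, with 1.001 and 1.003 FPKM, which were kept.

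**Figure D1:**
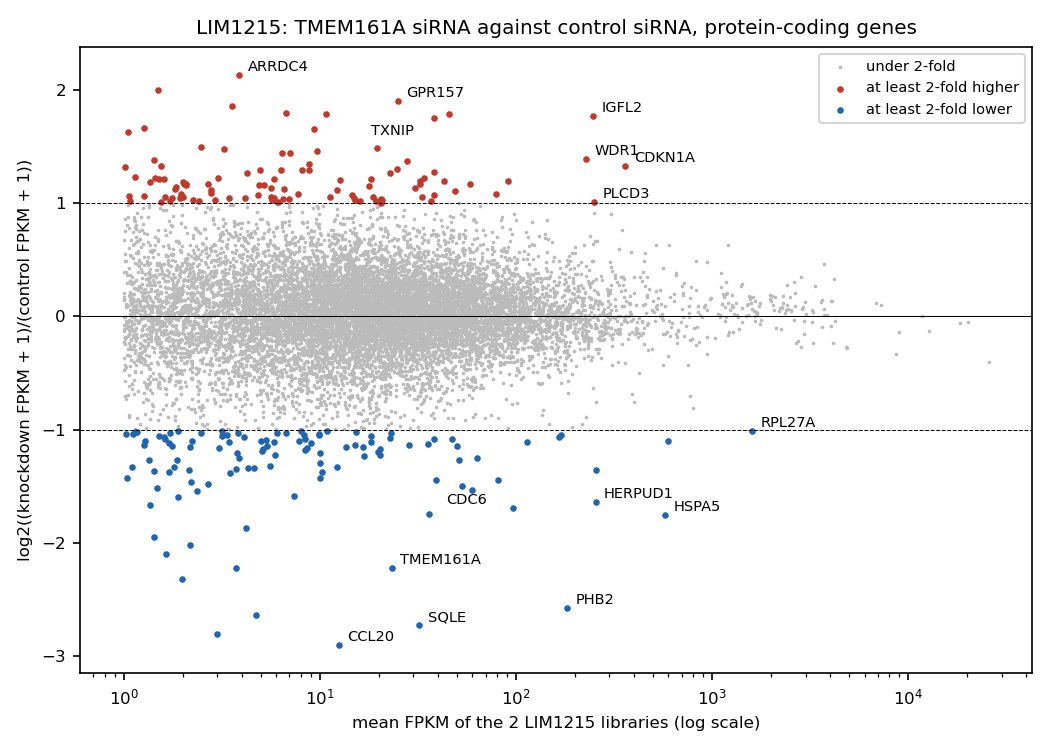
Log2 ratio of each of the 12200 protein-coding genes (vertical axis, knockdown over control in LIM1215) against its mean FPKM over both libraries (horizontal axis, log scale). Red points are the 103 genes that rose and blue points the 114 that fell past 2-fold (dashed lines); most lie under 50 FPKM, and HERPUD1, HSPA5, PHB2, IGFL2 and CDKN1A stand out among abundant genes.

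The functions were described by 40 gene lists that together held 1090 of the measured genes. These lists covered 13 of the 103 genes that rose (12.6%) and 23 of the 114 that fell (20.2%), against 8.93% of all measured genes. Most genes past 2-fold, like most measured genes, therefore belonged to no listed function. The lowest list medians belonged to ER chaperones (−0.69), DNA replication and S phase (−0.59), homologous recombination and Fanconi anaemia (−0.46) and G2 and mitosis (−0.42). The highest belonged to p53 targets (0.46), alpha-arrestins and glucose sensing (0.39) and ERK feedback and immediate early genes (0.32). Counts past 2-fold in each list stand beside 0.844% of all genes that rose and 0.934% that fell. At 1.5-fold these shares were 5.39% and 5.03%. In bulk RNA, fewer cells in a phase or state and less RNA per cell cannot be told apart, which holds for every list below.

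**Figure D2:**
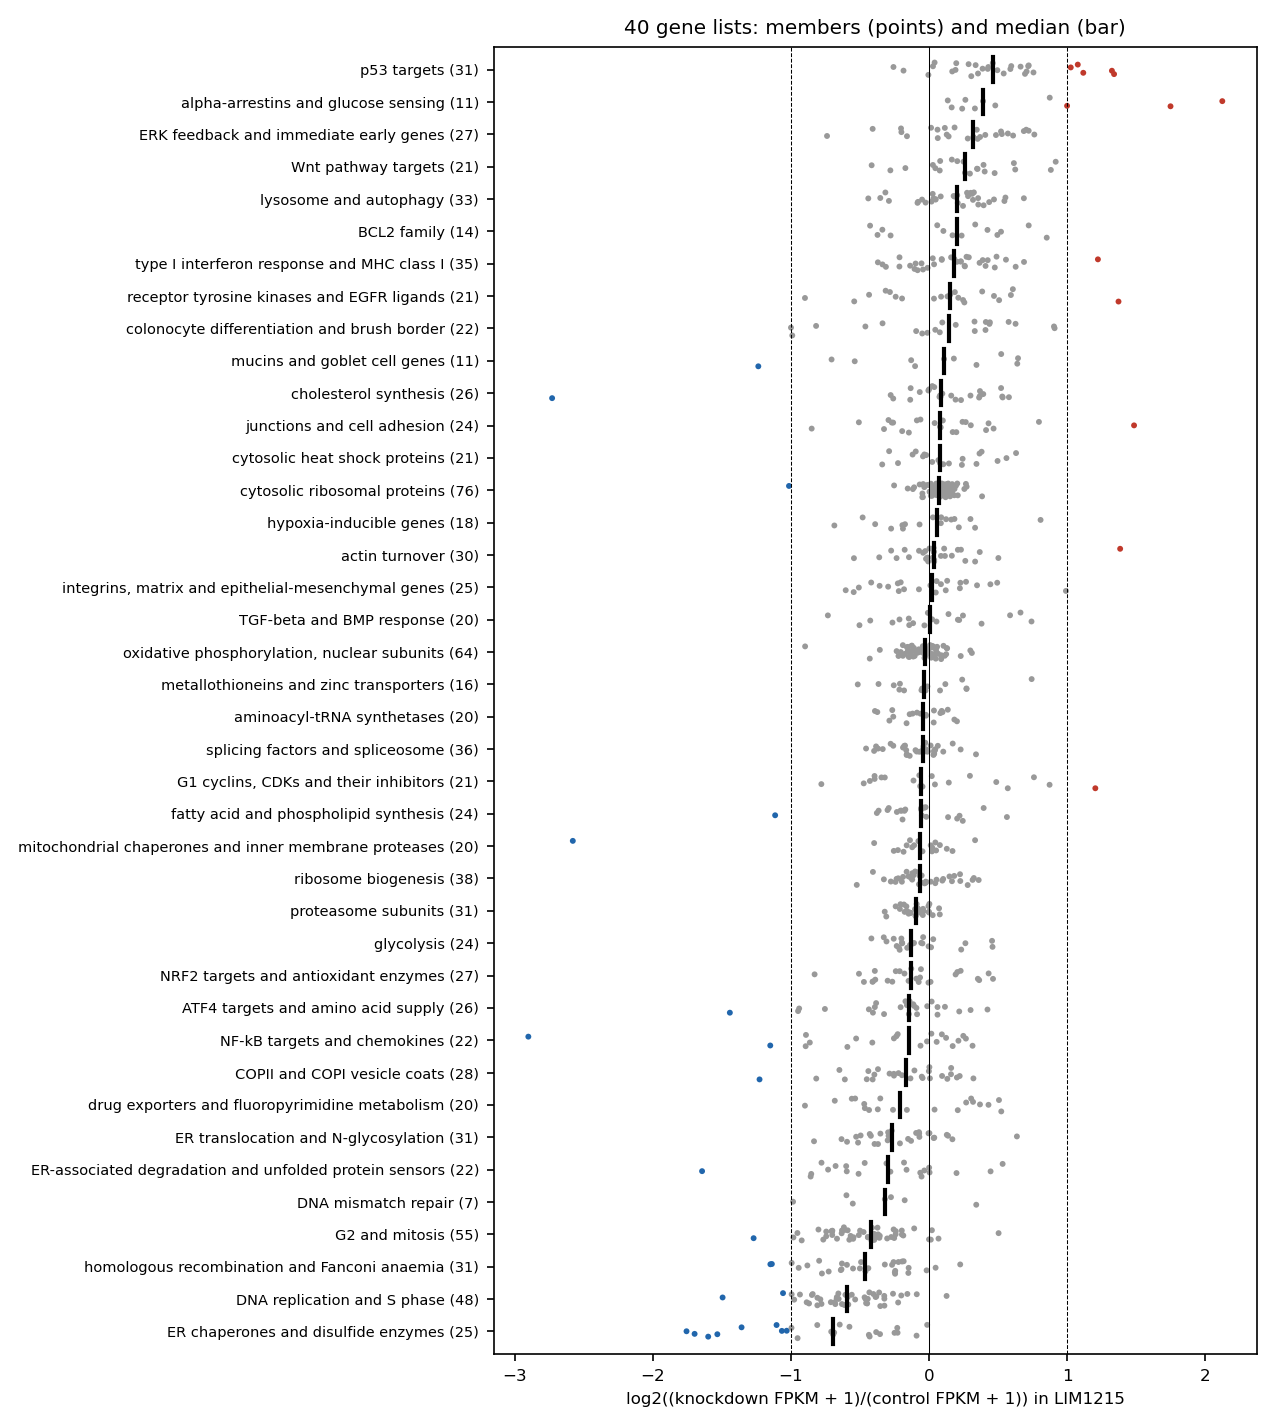
Log2 ratios in LIM1215 of the measured members of 40 gene lists (points) with the list median (black bar), ordered by median, and the number of measured members in brackets. Red and blue points rose or fell past 2-fold (dashed lines); the ER chaperone list at the bottom has all 25 members below 0 and the p53 list at the top has 28 of 31 above 0.

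The ER chaperones had the lowest median of the lists. All 25 measured ER chaperones and disulfide enzymes lay below 0, from −1.76 to −0.01, and 8 of them fell past 2-fold, against a background of 0.934%. At 1.5-fold 15 of 25 were lower and none higher. HSPA5 (BiP), the main chaperone of the ER lumen, had 894 FPKM in control and 264 in knockdown cells (−1.76). CRELD2, an ER stress-inducible protein with disulfide isomerase activity (chromosome 22, 49918167 to 49927540, plus strand), had 89.02 FPKM in control and 30.1 in knockdown cells, a log2 ratio of −1.53. MANF, a secreted ER stress protein that binds BiP (chromosome 3, 51385291 to 51389397, plus strand), had 369 FPKM in control and 143 in knockdown cells (−1.36). These 3 fell together with HSP90B1, HYOU1, SDF2L1, ERO1B and DNAJB9, so the group held abundant chaperones and scarce ones.

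HSP90B1 (GRP94), the HSP90 of the ER (chromosome 12, 103930107 to 103953931, plus strand), had 813 FPKM in control and 378 in knockdown cells, or 46.5% of control (counting interval 45.6% to 47.2%). HYOU1 (GRP170), a large HSP70-like chaperone that also acts as an exchange factor for BiP (chromosome 11, 119044188 to 119057227, minus strand), had 225 FPKM in control and 107 in knockdown cells (−1.06). The oxidase ERO1B (chromosome 1, 236214681 to 236282019, minus strand) was scarce, with 3.36 FPKM in control and 0.440 in knockdown cells (−1.60), and overlaps GPR137B on the opposite strand. Members that did not pass 2-fold included the lectin chaperones. CALR had 1016 FPKM in control and 579 in knockdown cells (−0.81). CANX had 669 FPKM in control and 523 in knockdown cells (−0.35). The disulfide isomerase PDIA4 had 187 FPKM in control and 139 in knockdown cells (−0.43). The chaperones thus spanned a graded range, with the HSP70 and HSP90 family members of the ER below the lectin chaperones and most isomerases.

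Some promoters of these genes carry a well known element, and it is shown because several of the chaperones that fell hold it. The ER stress response element, searched as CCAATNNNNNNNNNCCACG on both strands of the 250 bases before and 50 after each start in RefSeq (GRCh38.p14), occurred in 0.0916% of the 27305 genes with a promoter there. Of the 9858 measured genes with a promoter, 0.162% held it. It occurred in 7 of 23 ER chaperones with a promoter (30.4%), in 4 of 93 genes that fell and in 0 of 81 that rose. The 4 that fell, HSPA5, HSP90B1, CRELD2 and ERO1B, are all among these 7 chaperones. A related element, ATTGGNCCACG, occurred in 0.0696% of all genes and in 0.142% of measured genes. It occurred in 2 of 23 ER chaperones, HYOU1 and SDF2L1, and in 3 of 93 genes that fell, these 2 and HERPUD1. The counts among genes that fell thus repeat genes of the ER lists. No gene held both elements. The promoter of HSPA5 (chr9:125241344-125241593, minus strand, the 250 bases up to the start) is printed with the element in capitals, 66 to 48 bases before the start, and that of HERPUD1 (chr16:56931892-56932141, plus strand) with the second element in capitals, 117 to 107 bases before the start.
HSPA5: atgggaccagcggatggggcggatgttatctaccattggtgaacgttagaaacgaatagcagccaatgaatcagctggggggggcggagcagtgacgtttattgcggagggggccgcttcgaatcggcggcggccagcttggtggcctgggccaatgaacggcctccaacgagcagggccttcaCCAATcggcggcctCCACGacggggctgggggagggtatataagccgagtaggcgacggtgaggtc
HERPUD1: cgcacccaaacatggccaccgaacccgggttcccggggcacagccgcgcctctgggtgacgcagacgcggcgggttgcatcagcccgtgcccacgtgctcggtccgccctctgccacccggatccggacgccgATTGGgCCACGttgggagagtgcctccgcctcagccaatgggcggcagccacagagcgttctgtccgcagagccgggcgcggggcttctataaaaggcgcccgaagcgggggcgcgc

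The same elements in other members, with 5 bases on either side, are printed in the orientation of the element, because the search left the bases between its conserved ends free and these lines show them. CANX (−0.35) holds the first element as well and is not printed.
HSP90B1, 194 to 176 bases before the start: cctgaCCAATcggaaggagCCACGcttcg
HSP90B1, 89 to 71 bases before the start: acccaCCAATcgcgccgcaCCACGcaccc
CALR, 225 to 207 bases before the start: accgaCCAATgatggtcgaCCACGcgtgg
PDIA6, 86 to 68 bases before the start: ccggaCCAATgagccgcagCCACGgcttg
CRELD2, 80 to 62 bases before the start: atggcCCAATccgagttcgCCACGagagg
ERO1B, 243 to 225 bases before the start: ggcggCCAATgaggcgggaCCACGcgggc
XBP1, 52 to 34 bases before the start: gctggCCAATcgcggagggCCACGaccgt
HYOU1, second element, 185 to 175 bases before the start: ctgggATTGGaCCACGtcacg
HYOU1, second element, 79 to 69 bases before the start: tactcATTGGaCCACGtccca
SDF2L1, second element, 188 to 178 bases before the start: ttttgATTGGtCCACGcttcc
Over all measured genes with a promoter, the 16 with the first element had a median log2 ratio of −0.46, and 14 of them lay below 0. The 14 with the second element had a median of −0.20, and 12 lay below 0. Of the genes without either one of these elements, 47.1% lay below 0. The 16 include the 7 ER chaperones and XBP1, and the 14 include HYOU1, SDF2L1 and HERPUD1, so these counts partly repeat the genes described above. A match of letters describes the promoter and does not show that a factor was bound there.

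Among genes of ER-associated degradation and the unfolded protein sensors, 17 of 22 lay below 0 (median −0.29) and 1 fell. This was HERPUD1, an ER membrane protein that recruits the degradation machinery and is strongly induced by ER stress (chromosome 16, 56932142 to 56944864, plus strand). It had 388 FPKM in control and 123 in knockdown cells, or 31.8% of control (counting interval 30.9% to 32.7%), a log2 ratio of −1.64. Adaptor and ligase genes of the same machinery were lower without passing 2-fold. SEL1L had 49.2 FPKM in control and 26.8 in knockdown cells (−0.85). SYVN1, the ubiquitin ligase that works with SEL1L, had 58.2 FPKM in control and 33.6 in knockdown cells (−0.78). The sensor kinase EIF2AK3 (PERK) had 11.9 FPKM in control and 6.11 in knockdown cells (−0.86), and the transcription factor XBP1 had 175 FPKM in control and 141 in knockdown cells (−0.31).

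The rest of the secretory route was lower by less. Genes of ER translocation and N-glycosylation had a median of −0.27, with 24 of 31 below 0 and none past 2-fold. The signal peptidase subunit SPCS3 had 55.4 FPKM in control and 30.7 in knockdown cells (−0.83), while SRPRA, the signal recognition particle receptor, was higher, with 46.3 FPKM in control and 72.5 in knockdown cells (0.64). Coats of COPII and COPI vesicles had a median of −0.16, and 1 of 28 fell. This was SEC24D, a cargo-selecting subunit of the COPII coat, with 28.9 FPKM in control and 11.8 in knockdown cells (−1.23). VAMP3, a SNARE of recycling endosomes and no member of these lists (chromosome 1, 7771296 to 7781432, plus strand), fell too, with 56.2 FPKM in control and 16.03 in knockdown cells (−1.75).

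The ATF4 branch differed in extent from the chaperones. Its targets and the genes of amino acid supply had a median of −0.14, with 19 of 26 below 0, and 1 fell. DDIT3 (CHOP), the pro-apoptotic factor induced by ATF4 (chromosome 12, 57516588 to 57521737, minus strand), had 57.6 FPKM in control and 20.6 in knockdown cells (−1.44). DDIT3 overlaps MARS1 and MBD6 on the opposite strand and 1 further gene on its own strand, so its fragments are uncertain. ATF4 itself had 597 FPKM in control and 534 in knockdown cells (−0.16), and ASNS, which makes asparagine and is a classical ATF4 target, had 121 FPKM in control and 127 in knockdown cells (0.06). The mitochondrial serine enzyme SHMT2 was lower, with 285 FPKM in control and 147 in knockdown cells (−0.95), as was the amino acid transporter SLC1A4, with 30.6 FPKM in control and 15.5 in knockdown cells (−0.94). The 20 aminoacyl-tRNA synthetases stayed between −0.39 and 0.20, with a median of −0.04 and none past 1.5-fold. The ATF4 amino acid response element, searched as TGATGNAAT, occurred in 0 of 22 promoters of this list, in 0.71% of measured genes and in 1.22% of all.

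**Figure D3:**
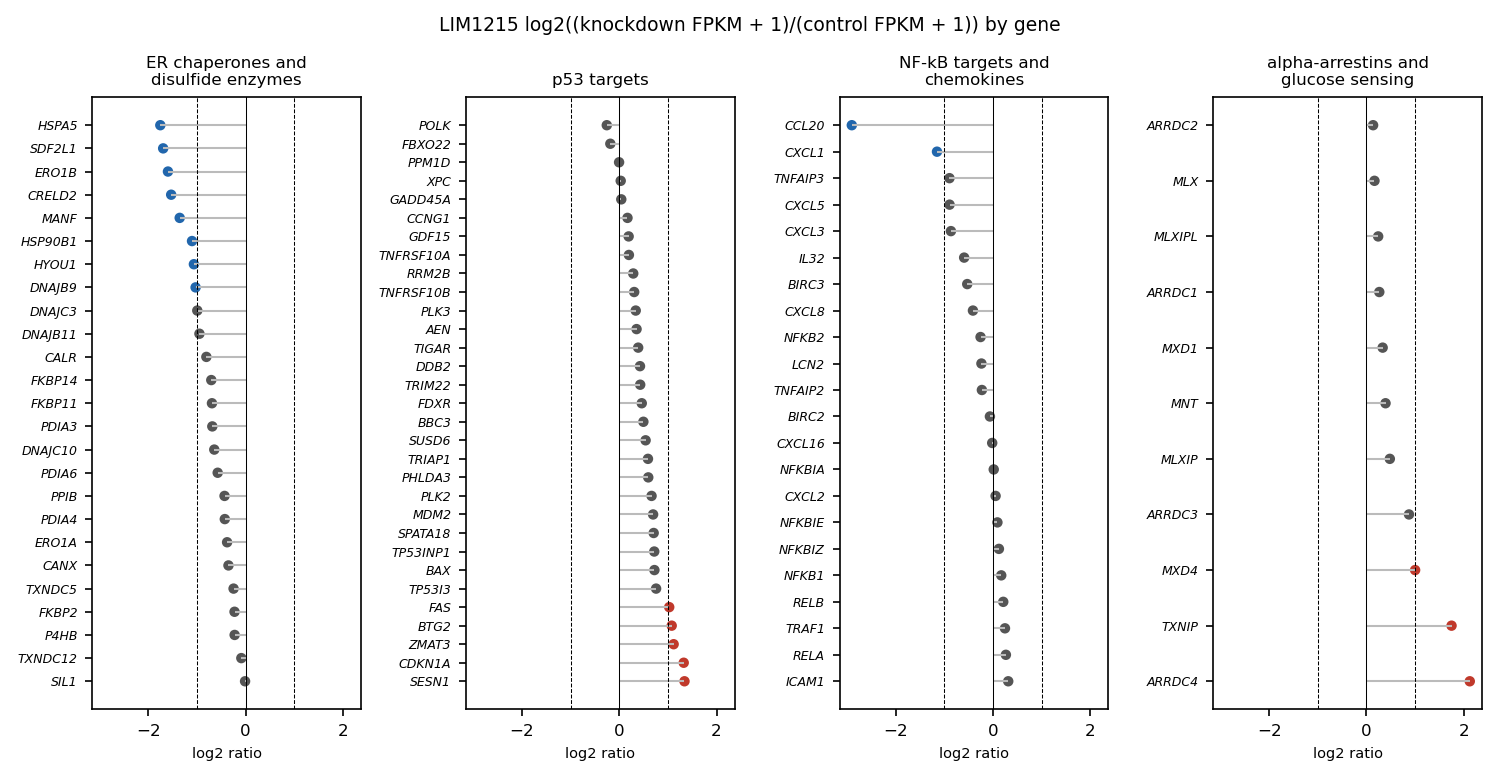
Log2 ratios in LIM1215 (horizontal axis) of every measured member of 4 lists, sorted within the list, with dashed lines at 2-fold. Members that fell (blue) include 8 ER chaperones led by HSPA5 and the chemokines CCL20 and CXCL1; members that rose (red) include 5 p53 targets and the alpha-arrestins TXNIP and ARRDC4 with MXD4.

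Genes of DNA replication and S phase were lower almost without exception. Of 48 members 47 lay below 0 and 1 above, with a median of −0.59 and a range from −1.49 to 0.13. At 2-fold 2 fell, and at 1.5-fold 25 were lower, against 5.03% of all genes. CDC6, which loads the replicative helicase onto origins (chromosome 17, 40287879 to 40304657, plus strand), fell most, with 79.3 FPKM in control and 27.5 in knockdown cells, or 34.7% of control (counting interval 33.1% to 36.3%), a log2 ratio of −1.49. CDC45, part of the active helicase, had 24.9 FPKM in control and 11.4 in knockdown cells (−1.06). The list as a whole was therefore made of moderate differences of one direction and few large ones. RRM2, the small subunit of ribonucleotide reductase, had 227 FPKM in control and 141 in knockdown cells (−0.68). MCM2, a helicase subunit, had 53.4 FPKM in control and 33.2 in knockdown cells (−0.67), and the sliding clamp PCNA had 156 FPKM in control and 124 in knockdown cells (−0.32). The S phase cyclin CCNE2 had 8.25 FPKM in control and 3.64 in knockdown cells (−0.99).

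Sites for E2F, searched as TTTCGCGC or TTTGGCGC on both strands of the same windows, occurred in 1.4% of all genes with a promoter. They occurred in 2.5% of measured genes with a promoter and in 14 of 41 S phase genes (34.1%). Over all promoters 7 genes held both forms, which can overlap on opposite strands, as they do in MCM6. Either form also occurred in 5 of 93 genes that fell and in 1 of 81 that rose. Sites are printed for 6 replication genes because these are the textbook binding letters of the factors that switch this list on. The S phase genes with a site that are not printed had log2 ratios from −0.68 (POLE2) to −0.09 (POLA2). Each line gives the site in capitals with 5 bases on either side, in the orientation of the site.
CDC6, after the start: tcggaTTTGGCGCgagcg
MCM2, after the start: ccactTTTCGCGCgaaac
MCM3, across the start: gaagtTTTCGCGCcgggg
MCM6, 148 to 141 bases before the start: agggaTTTCGCGCcaaat
MCM7, 9 to 2 bases before the start: cgacgTTTCGCGCcaatt
E2F1, 20 to 13 bases before the start: aaggaTTTGGCGCgtaaa
MCM3 had 120.3 FPKM in control and 69.7 in knockdown cells (−0.78), MCM6 had 44.2 FPKM in control and 29.1 in knockdown cells (−0.58), and E2F1, itself an E2F factor, had 17.5 FPKM in control and 10.3 in knockdown cells (−0.71). Over all 246 measured genes with either form, the median log2 ratio was −0.10, and 62.6% lay below 0, against 46.7% of the genes without, so most promoters with these letters belonged to genes near 0.

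Mitotic genes were lower to a smaller extent. The G2 and mitosis list had a median of −0.42, with 50 of 55 below 0. Of its members 18 were lower past 1.5-fold, against 5.03% of all genes, and 1 past 2-fold, against 0.934%. LMNB1, which encodes lamin B1 of the nuclear lamina (chromosome 5, 126776623 to 126837020, plus strand), was the one that fell, with 73.3 FPKM in control and 29.8 in knockdown cells (−1.27). CDK1, the mitotic kinase, had 29.9 FPKM in control and 19.3 in knockdown cells (−0.61), and its partner CCNB1 had 133 FPKM in control and 103 in knockdown cells (−0.37). The kinesin KIF2C had 42.6 FPKM in control and 21.1 in knockdown cells (−0.98), close to the threshold. RAD21, the cohesin subunit that is cut when sister chromatids part (chromosome 8, 116845934 to 116874776, minus strand), was not on the list but fell, with 119 FPKM in control and 43.1 in knockdown cells (−1.45). RAD21 overlaps UTP23 on the opposite strand.

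Repair genes that act at replication forks were mostly lower too. Of 31 measured genes of homologous recombination and the Fanconi anaemia pathway 29 lay below 0 (median −0.46), 2 fell, and 12 were lower past 1.5-fold. Over all genes 0.934% fell and 5.03% were lower past 1.5-fold. BRCA2, a mediator of strand exchange, had 7.77 FPKM in control and 2.96 in knockdown cells (−1.15) and overlaps ZAR1L on the opposite strand. EXO1, a nuclease of resection and mismatch repair, had 21.2 FPKM in control and 9.11 in knockdown cells (−1.14). BRCA1 had 23.7 FPKM in control and 11.8 in knockdown cells (−0.94). USP1, the deubiquitinase that reverses the ubiquitin marks of FANCD2 and PCNA (chromosome 1, 62436297 to 62451804, plus strand), fell as well, with 15.1 FPKM in control and 4.997 in knockdown cells (−1.42).

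Because LIM1215 is mismatch-repair deficient, the 7 genes of that pathway were described too. Their median was −0.32, with 6 below 0, and none passed 2-fold. PMS1, a MutL subunit, had the lowest ratio, with 22.3 FPKM in control and 10.8 in knockdown cells (−0.98), and overlaps ORMDL1 on the opposite strand. MSH6 had 27.4 FPKM in control and 17.7 in knockdown cells (−0.60), and MLH3 was higher, with 8.30 FPKM in control and 10.8 in knockdown cells (0.34). An RNA level says nothing of whether the protein works, and protein was not measured here.

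The p53 targets were the highest list. Of 31 measured members 28 lay above 0, with a median of 0.46. At 2-fold 5 rose and none fell, against 0.844% of all genes, and 13 were higher past 1.5-fold, against 5.39%. CDKN1A (p21), the inhibitor of cyclin-dependent kinases (chromosome 6, 36676460 to 36687337, plus strand), had 206 FPKM in control and 518 in knockdown cells, or 251% of control (counting interval 244% to 258%), a log2 ratio of 1.33. SESN1, a sestrin that restrains mTORC1 (chromosome 6, 108984309 to 109094846, minus strand), had 4.53 FPKM in control and 13.01 in knockdown cells (1.34). BTG2, an antiproliferative regulator of mRNA decay (chromosome 1, 203305491 to 203309602, plus strand), had 50.7 FPKM in control and 108 in knockdown cells (1.08). The other 2 that rose were ZMAT3, an RNA-binding protein, with 7.35 FPKM in control and 17.1 in knockdown cells (1.12), and the death receptor FAS, with 13.4 FPKM in control and 28.3 in knockdown cells (1.03), which overlaps ACTA2 and STAMBPL1. MDM2, the ubiquitin ligase that degrades p53, had 88.1 FPKM in control and 143 in knockdown cells (0.70), and the death effector BAX had 106 FPKM in control and 175 in knockdown cells (0.72). The 14 measured BCL2 family genes, which set the threshold of apoptosis, had a median of 0.20, and BIK, a sensitiser of that family, had 59.7 FPKM in control and 109 in knockdown cells (0.85).

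Genes of the G1 phase had no common direction, with a median of −0.06, 9 of 21 above 0 and 1 that rose. The mean of this list was above 0 (0.04) while the median was below. The D-type cyclins, which drive CDK4 and CDK6, were all on the high side. CCND3 rose, with 7.32 FPKM in control and 18.2 in knockdown cells (1.21). CCND2 had 60.04 FPKM in control and 111 in knockdown cells (0.87), and CCND1 had 376 FPKM in control and 528 in knockdown cells (0.49). CDKN2A (p16) was lower, with 10.2 FPKM in control and 5.53 in knockdown cells (−0.78). MYC had 217 FPKM in control and 267 in knockdown cells (0.30).

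Leaving aside the 5 largest rises shared with HT29 (WDR1, MET, PTPMT1, KLF2 and PDCD6), the 20 largest rises were mostly genes of low to moderate level. ARRDC4, an alpha-arrestin that links membrane proteins to ubiquitin ligases (chromosome 15, 97960703 to 97973833, plus strand), had 0.826 FPKM in control and 6.96 in knockdown cells, a log2 ratio of 2.12. GPR157, a G protein-coupled receptor (chromosome 1, 9100305 to 9129102, minus strand), had 10.03 FPKM in control and 40.1 in knockdown cells (1.90). The knockdown levels of these genes were 843% and 400.2% of control. UCP2, a carrier of the inner mitochondrial membrane from the uncoupling protein family (chromosome 11, 73974672 to 73982843, minus strand), had 19.9 FPKM in control and 71.1 in knockdown cells (1.78). IGFL2, a secreted protein of the insulin growth factor-like family (chromosome 19, 46143106 to 46161298, plus strand), was the most abundant of these rises after CDKN1A, with 112 FPKM in control and 384 in knockdown cells (1.77, counting interval 315% to 369% of control). UBE3D, a ubiquitin ligase, had 4.27 FPKM in control and 17.2 in knockdown cells (1.79), and TAPT1, a membrane protein linked to skeletal development, had 3.97 FPKM in control and 14.6 in knockdown cells (1.65).

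Further rises were those of single genes of varied function. The sialidase NEU4 had 0.972 FPKM in control and 6.15 in knockdown cells (1.86). B3GNT8, which extends N-glycans with N-acetylglucosamine, had 2.47 FPKM in control and 11.04 in knockdown cells (1.79). The cadherin CDH16 had 0.822 FPKM in control and 4.12 in knockdown cells (1.49), from an estimated 39.4 fragments in the control. ALPP, the placental alkaline phosphatase, had 4.71 FPKM in control and 14.7 in knockdown cells (1.46), and its near-identical paralogs make its level uncertain. LY6G6D, a surface protein of colorectal cancers, had 35.6 FPKM in control and 80.96 in knockdown cells (1.16) and overlaps the readthrough gene LY6G6F-LY6G6D.

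The remaining rises among the 20 largest were as varied. RCN3, a calcium-binding protein of the ER lumen, had 2.98 FPKM in control and 9.84 in knockdown cells (1.44), against the direction of the chaperones. SCHIP1 had 1.24 FPKM in control and 5.23 in knockdown cells (1.47) and shares its locus with IQCJ-SCHIP1. INO80B-WBP1 is a readthrough of 2 neighbouring genes and had 3.33 FPKM in control and 10.7 in knockdown cells (1.44). TRHDE, a peptidase that inactivates thyrotropin-releasing hormone, had 0.456 FPKM in control and 2.65 in knockdown cells (1.33) and overlaps TPH2. HSF4, a heat shock factor, had 13.8 FPKM in control and 35.5 in knockdown cells (1.30), and ZNF774, a zinc finger gene, had 2.46 FPKM in control and 7.47 in knockdown cells (1.29). Among abundant genes PLCD3, a phospholipase C, also rose, with 166 FPKM in control and 335 in knockdown cells (1.01), and overlaps ACBD4 and NMT1; it lay under 2-fold when ratios were centred on the median gene or scaled by the upper quartile. The chromatin protein HMGA2 (from 33.9 to 68.6 FPKM), the ER calcium-binding protein CALU (from 43.7 to 86.8 FPKM), the RAC1 regulator CYRIB (from 36.9 to 71.5 FPKM) and the histone variant gene H3-3A (from 212 to 397 FPKM) came next and did not pass 2-fold.

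**Figure D4:**
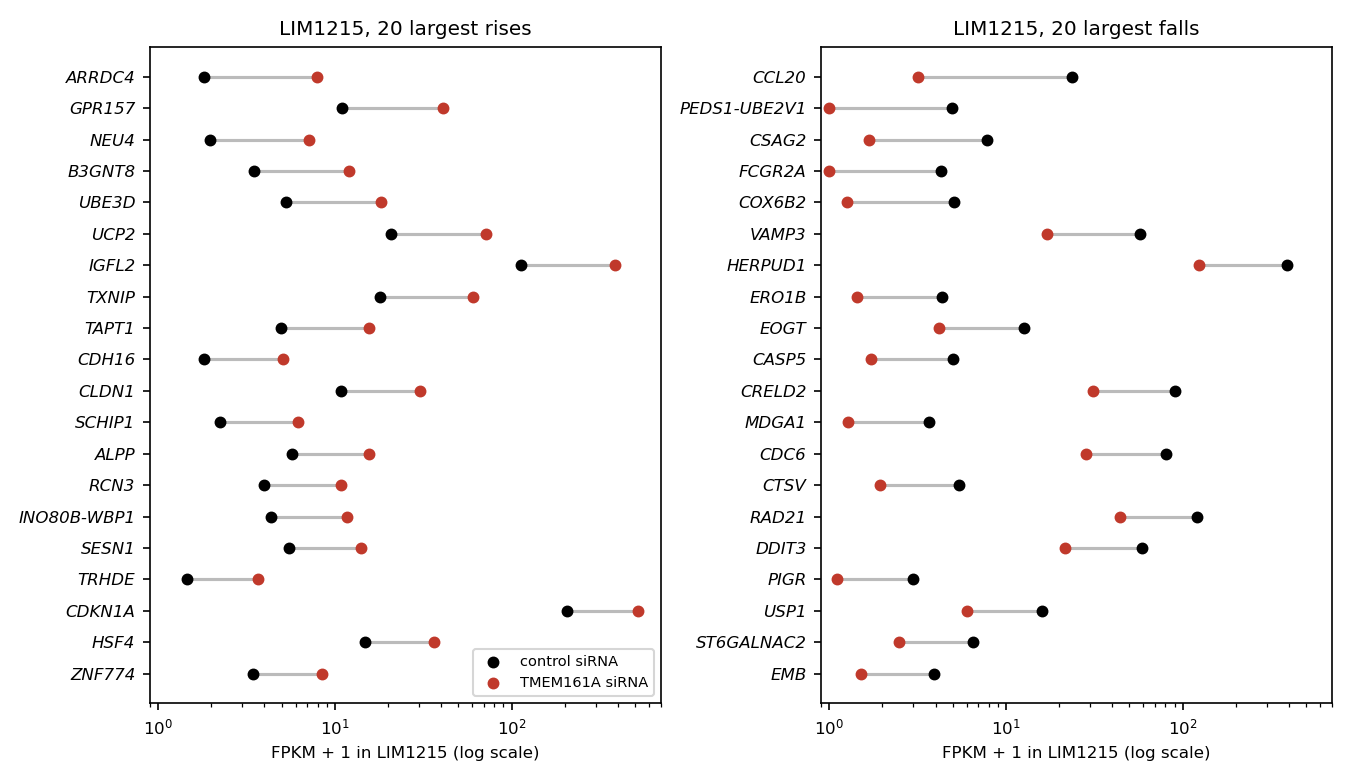
FPKM + 1 (log scale) in the control (black) and knockdown (red) LIM1215 library for the 20 largest rises (left) and the 20 largest falls (right), without TMEM161A and the 10 leading genes shared with HT29. Each point is 1 library; CCL20 has the longest line on the right and ARRDC4 on the left, and PEDS1-UBE2V1 and FCGR2A reach an FPKM of 0 in the knockdown library.

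ARRDC4 belongs with TXNIP to the alpha-arrestins. TXNIP and ARRDC4 are switched on by glucose through the factors MLXIP and MLXIPL and dampen glucose uptake. All 11 measured members of the list lay above 0 (median 0.39), and 3 rose, against 0.844% of all genes. TXNIP (chromosome 1, 145992435 to 145996579, minus strand) had 16.96 FPKM in control and 59.4 in knockdown cells, or 350.2% of control (counting interval 324% to 378%), a log2 ratio of 1.75. ARRDC3 had 13.9 FPKM in control and 26.4 in knockdown cells (0.87), and MXD4, a repressor of the MYC network, had 13.3 FPKM in control and 27.6 in knockdown cells, just past the threshold and under it when ratios were centred on the median gene. Glycolysis genes did not share this direction, with a median of −0.13, 18 of 24 below 0 and none past 1.5-fold. The glucose transporter SLC2A1 had 411 FPKM in control and 308 in knockdown cells (−0.42).

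The promoter of TXNIP (chr1:145996580-145996829, minus strand, the 250 bases up to the start) is shown because it holds the paired E-boxes of the carbohydrate response element. Searched as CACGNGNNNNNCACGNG on both strands, this pair occurred in 0.0732% of all genes with a promoter and in 0.162% of those measured. Of the genes that rose, 2 of 81 held it. Of the 11 genes of the alpha-arrestin list with a promoter, 1 held it, TXNIP itself. It lies 88 to 72 bases before the start, in capitals.
TXNIP: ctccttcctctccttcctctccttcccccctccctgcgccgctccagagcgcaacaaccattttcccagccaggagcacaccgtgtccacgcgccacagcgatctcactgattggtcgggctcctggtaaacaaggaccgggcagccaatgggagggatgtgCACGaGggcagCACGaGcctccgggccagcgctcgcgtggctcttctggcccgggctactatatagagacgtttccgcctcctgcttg
Over all 16 measured genes with the pair, the median log2 ratio was 0.11, and 2 rose.

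Leaving aside TMEM161A and the 5 largest falls shared with HT29 (SQLE, PHB2, HMSD, HSPA5 and SDF2L1), the largest fall was that of CCL20, a chemokine that attracts cells with the receptor CCR6 (chromosome 2, 227805739 to 227817564, plus strand). It had 22.8 FPKM in control and 2.19 in knockdown cells, or 9.59% of control (counting interval 6.23% to 14.1%), a log2 ratio of −2.90. Of the 22 measured NF-kB targets and chemokines 2 fell, against 0.934% of all genes, and the list median was −0.14. The neutrophil chemokine CXCL1 was the other, with 69.3 FPKM in control and 30.7 in knockdown cells (−1.15). CXCL5 (from 1.67 to 0.443 FPKM) and TNFAIP3 (from 6.99 to 3.30 FPKM), a feedback inhibitor of the pathway, had log2 ratios of −0.89 and −0.89. CXCL8 had 24.1 FPKM in control and 17.9 in knockdown cells (−0.41), and the inhibitor gene NFKBIA had 44.9 FPKM in control and 45.5 in knockdown cells (0.02). CCL20 and CXCL1 were thus the members past 2-fold, and NFKBIA lay near 0. At 1.5-fold 6 of the 22 were lower and none higher, against 5.03% and 5.39% of all genes. TNF and LTB did not reach 1 FPKM and SOD2 had no single identifier, so these 3 members were not measured.

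Further falls started from low levels. PIGR, which carries polymeric antibodies across epithelia, had 1.98 FPKM in control and 0.109 in knockdown cells (−1.43), an estimated 146 and 8.98 fragments. The inflammatory caspase CASP5 had 4.03 FPKM in control and 0.722 in knockdown cells (−1.55). FCGR2A, a receptor for IgG, had 3.29 FPKM in the control and was listed at 0 in the knockdown library, so no fold is given, and it has near-identical neighbours. PEDS1-UBE2V1, a readthrough gene, had 3.99 FPKM and was likewise listed at 0. CSAG2, a cancer-testis gene with near-identical copies, had 6.82 FPKM in control and 0.677 in knockdown cells (−2.22). COX6B2, the testis form of a cytochrome oxidase subunit, had 4.09 FPKM in control and 0.259 in knockdown cells (−2.02), an estimated 7.15 fragments in the knockdown library.

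EOGT, which adds N-acetylglucosamine to EGF domains in the ER (chromosome 3, 68975217 to 69013684, minus strand), had 11.6 FPKM in control and 3.20 in knockdown cells (−1.59). The sialyltransferase ST6GALNAC2 had 5.49 FPKM in control and 1.48 in knockdown cells (−1.39). MDGA1, a membrane-anchored adhesion protein, had 2.67 FPKM in control and 0.282 in knockdown cells (−1.52). CTSV, a lysosomal cathepsin, had 4.44 FPKM in control and 0.953 in knockdown cells (−1.48), and EMB, a partner of monocarboxylate transporters, had 2.91 FPKM in control and 0.510 in knockdown cells (−1.37). Among abundant genes SBDS, a ribosome maturation factor with a near-identical pseudogene copy, had 89.9 FPKM in control and 37.2 in knockdown cells (−1.25), and PLAC8 had 155 FPKM in control and 71.4 in knockdown cells (−1.11).

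Metabolic lists stayed close to 0 apart from single genes. Cholesterol synthesis had a median of 0.09, with 19 of 26 above 0, although SQLE, the squalene epoxidase within it, fell (from 56.6 to 7.70 FPKM). The sterol sensor INSIG1 had 153 FPKM in control and 221 in knockdown cells (0.53). Fatty acid and phospholipid synthesis had a median of −0.06, and 1 of 24 fell. This was ELOVL6, which elongates saturated fatty acids, with 25.2 FPKM in control and 11.1 in knockdown cells (−1.11). Drug exporters and enzymes of fluoropyrimidine metabolism, listed because the study also measured chemosensitivity, had a median of −0.21 and none past 2-fold. UCK2, which activates pyrimidine nucleosides, had 62.3 FPKM in control and 32.98 in knockdown cells (−0.90), and TYMS, the target of fluorouracil, had 149.98 FPKM in control and 125 in knockdown cells (−0.26) and overlaps ENOSF1 on the opposite strand.

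Mitochondrial genes varied little. Mitochondrial chaperones and inner membrane proteases had a median of −0.06, and 1 of 20 fell, the prohibitin gene PHB2 (from 313 to 51.6 FPKM). Its partner PHB1 had 317 FPKM in control and 295 in knockdown cells (−0.11). Nuclear subunits of oxidative phosphorylation had a median of −0.03 over 64 genes, none past 2-fold, with NDUFB5 lowest (from 91.1 to 48.5 FPKM, −0.90). The 13 mitochondrially encoded genes all lay below 0, with a median of −0.22 and a range from −0.40 to −0.00124. Hypoxia-inducible genes had a median of 0.06 with 10 of 18 above 0, and the mean of that list was below 0.

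Translation and protein turnover lists were narrow. Of 76 cytosolic ribosomal protein genes 63 lay above 0, with a median of 0.07, and 1 fell. RPL27A had 2151 FPKM in control and 1065 in knockdown cells (−1.01) and overlaps DENND2B on the opposite strand. Ribosome biogenesis had a median of −0.06 and the proteasome of −0.10, with none of 38 and 31 members past 1.5-fold. Splicing factors had a median of −0.04. Cytosolic heat shock proteins had a median of 0.08, with HSPA8, the constitutive HSP70, highest (from 943 to 1461 FPKM, 0.63), so the cytosolic chaperones did not share the low values of those in the ER. Lysosome and autophagy genes were on the high side, with 25 of 33 above 0 (median 0.20).

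Epithelial identity was described by differentiation, mucin, junction and Wnt lists. Colonocyte differentiation and brush border genes had a median of 0.15 over 22 of 30 measured members, and none passed 2-fold. The transcription factor CDX2 had 96.8 FPKM in control and 150.1 in knockdown cells (0.63), the keratin KRT20 had 67.8 FPKM in control and 92.2 in knockdown cells (0.44), and the brush border protein VIL1 had 192 FPKM in control and 261 in knockdown cells (0.44). FABP1, a fatty acid-binding protein of absorptive cells, went the other way, with 122 FPKM in control and 61.1 in knockdown cells (−0.99). The tetraspanin TSPAN1 had 173 FPKM in control and 327 in knockdown cells (0.91). Of the 22 members 14 lay above 0 and 8 below, so the list had no common direction. The markers of intestinal epithelium examined first were on the high side, from 0.04 (CDH1) to 0.63 (CDX2). Among mucin and goblet cell genes 11 of 18 were measured, and SPINK4 fell (from 24.02 to 9.63 FPKM, −1.24). The ER isomerase AGR2, needed for mucin folding, had 954 FPKM in control and 585 in knockdown cells (−0.71), while the trefoil peptide TFF3 had 52.96 FPKM in control and 83.1 in knockdown cells (0.64).

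Junction and adhesion genes had a median of 0.08, and 1 of 24 rose. This was CLDN1, a tight junction claudin (chromosome 3, 190305707 to 190322446, minus strand), with 9.78 FPKM in control and 29.2 in knockdown cells, or 298% of control (counting interval 272% to 328%). CDH1, the epithelial cadherin, had 176 FPKM in control and 182 in knockdown cells (0.04), and the desmosomal cadherin DSC2 had 24.3 FPKM in control and 13.04 in knockdown cells (−0.85). Wnt targets had a median of 0.26, with 18 of 21 above 0 and none past 2-fold. ASCL2, a stem cell factor of the crypt, had 32.3 FPKM in control and 60.4 in knockdown cells (0.88), whereas LGR5, another crypt marker, had 26.7 FPKM in control and 23.6 in knockdown cells (−0.17). Integrins and epithelial-mesenchymal genes had a median of 0.02 and actin turnover of 0.03, and both changed sign once the trend on GC content and transcript length was removed. In the actin list WDR1, a cofactor of cofilin, rose (from 126 to 329 FPKM), and no other member passed 1.5-fold.

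Signalling genes differed modestly. ERK feedback and immediate early genes had a median of 0.32, with 22 of 27 above 0 and none past 2-fold. FOS had 257 FPKM in control and 436 in knockdown cells (0.76), DUSP1 had 29.4 FPKM in control and 49.2 in knockdown cells (0.72), and ETV4 was lower, with 67.4 FPKM in control and 40.01 in knockdown cells (−0.74). Receptor tyrosine kinases and EGFR ligands had a median of 0.15, and 1 of 21 rose, the receptor gene MET (from 15.02 to 40.5 FPKM). The EGFR ligand AREG was lower, with 106 FPKM in control and 56.3 in knockdown cells (−0.90). Interferon response and MHC class I genes had a median of 0.18, and 1 of 35 rose, IFI44 (from 1.41 to 4.62 FPKM, 1.22). HLA-B had 473 FPKM in control and 731 in knockdown cells (0.63). TGF-beta and BMP response genes had a median of 0.01, which changed sign when centred on the median gene, NRF2 targets of −0.13, and metallothioneins and zinc transporters of −0.04, with none past 2-fold in these 3 lists.

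The same genes were then read in the libraries labelled HT29, where the levels of VIL1 and LGALS4 go against that label. Each line has its own control, and the lines share no sample. Of the 12200 genes, 113 rose and 148 fell past 2-fold in HT29, 0.926% and 1.21%. Of the 103 that rose in LIM1215, 16 also rose in HT29, 15.5% of the LIM1215 list, and 2 fell. Of the 114 that fell in LIM1215, 33 also fell in HT29, 28.9% of the list, and 3 rose. Expression limits this reading, since 30 of the 103 and 19 of the 114 had a mean under 1 FPKM in HT29, against 6.70% of all genes. With those left out, 15 of 73 and 32 of 95 were shared.

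**Figure D5:**
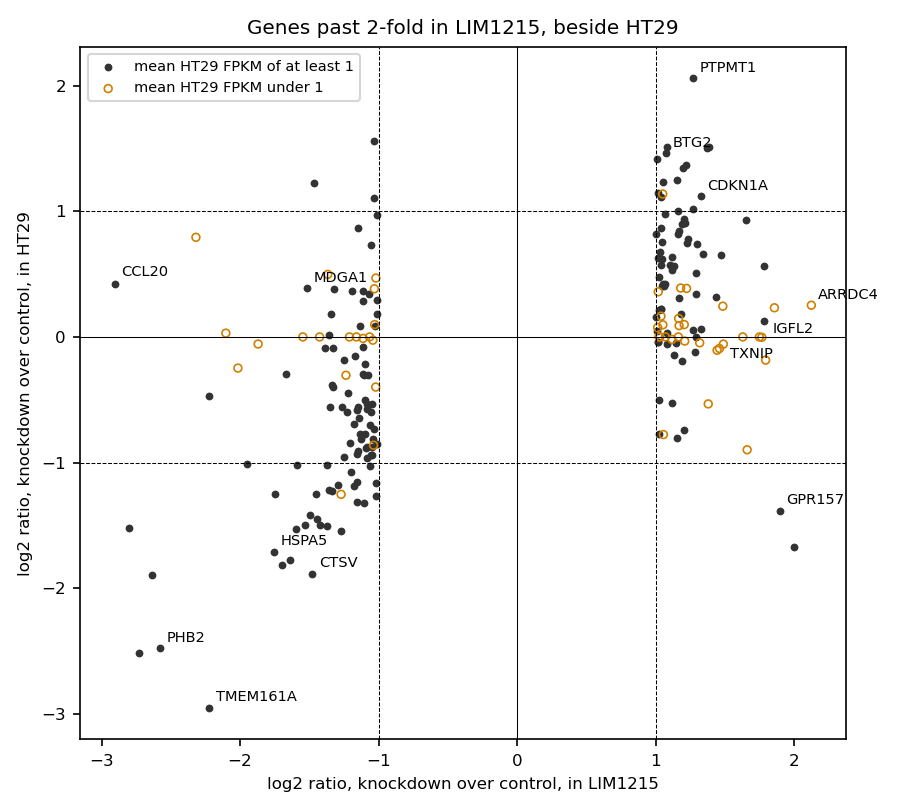
Log2 ratios in LIM1215 (horizontal axis) and HT29 (vertical axis) for the genes past 2-fold in LIM1215, with dashed lines at 2-fold. Filled points had a mean of at least 1 FPKM in HT29 and open points less; PHB2 and HSPA5 fell in both lines, while GPR157 rose in LIM1215 and fell in HT29.

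The lists with the lowest medians in LIM1215 lay below 0 in HT29 as well. ER chaperones had −0.69 in LIM1215 and −0.73 in HT29, S phase genes −0.59 and −0.54, and homologous recombination −0.46 and −0.53. The p53 targets had 0.46 and 0.35. Some lists nearer 0 in LIM1215 had the other sign in HT29. NF-kB targets had −0.14 in LIM1215 and 0.13 in HT29, cholesterol synthesis 0.09 and −0.13, and ribosome biogenesis −0.06 and 0.21. Wnt targets had 0.26 and 0, with 7 members under 1 FPKM in HT29. HERPUD1 (−1.77 in HT29), CRELD2 (−1.50), MANF (−1.22), CDC6 (−1.42), USP1 (−1.49), DDIT3 (−1.45) and LMNB1 (−1.55) fell past 2-fold in HT29 as well. The same held for CTSV (−1.88), ERO1B (−1.53), EMB (−1.51), VAMP3 (−1.25), RAD21 (−1.25) and EOGT (−1.02). Among the rises CDKN1A (1.12), BTG2 (1.46) and PLCD3 (1.42) rose in HT29 too.

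Some other leading genes of LIM1215 were scarcely expressed in HT29, and some that were expressed there stayed under 2-fold. IGFL2 had 0.186 FPKM in the HT29 control and 0.183 in its knockdown library. CLDN1 had 0.0143 and 0.202, and NEU4 had 0.0826 and 0.272. TXNIP and LY6G6D were listed at 0 in both HT29 libraries. At such levels a ratio in HT29 rests on few fragments or none. UBE3D, in contrast, was expressed at a similar level in HT29, with 4.35 and 4.83 FPKM (0.12), and UCP2 had 6.07 and 9.46 FPKM (0.56). TAPT1 (0.93), HSF4 (0.74) and SESN1 (0.66) were also higher in HT29 without passing 2-fold, while GPR157 went the other way (−1.38). With 1 library a group, the difference between the lines was not tested for any gene.

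Some of the genes described overlap another coding gene, and their fragments are uncertain where counting ignored the strand. Beside the overlaps already named, this holds for CRELD2 (with ALG12), HSP90B1 (UQCC6), CANX (CBY3), SYVN1 (FAU and MRPL49), SRPRA (FOXRED1), SHMT2 (NDUFA4L2) and SBDS (TYW1). It holds as well for CCNE2 (INTS8), MDM2 (CPM), CCND1 (LTO1), MSH6 (FBXO11), UCK2 (TMCO1), LGR5 (TSPAN8), VIL1 (USP37), TSPAN1 (P3R3URF), SPINK4 (BAG1), ETV4 (DHX8) and CALU (OPN1SW). CCND2, COX6B2, HSF4, NDUFB5 and ST6GALNAC2 overlap a coding gene model without a symbol on the same strand.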

How the data were processed

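RNA was sequenced from 4 cultures, 1 library per group, after column extraction and a stranded kit that selects poly(A) RNA, per the labels' protocols. The authors deposited FPKM for 60658 Ensembl identifiers per library, and the submitters' processing notes name HISAT2 2.1.0, SAMtools 1.20, Cufflinks 2.2.1, Cuffdiff and GRCh38, without saying which tool did what. Annotation, filters and the use of strand in counting are not given in the sources used here, so fragments of overlapping genes or near-identical copies are uncertain. Since FPKM is scaled to library depth, each value depends on all other genes of the library.

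Symbols, positions and biotypes came from GENCODE release 44 for 56550 identifiers; 4108 had no match. Depth was estimated from the steps of low FPKM values, of which 79.6% and 80.4% lay within 0.03 of a whole fragment in the LIM1215 libraries, against 6.0% without steps. Ratios, medians and counts were computed with pandas 2.3.3 and numpy 2.4.6 and intervals with scipy 1.17.1, and the code was tested on simulated data. No p-value was computed.

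Members, lists and rules were chosen with earlier results of these data known. Named genes were TMEM161A and TMEM161B, the 20 largest rises and falls (transcripts of at least 500 bases, symbols with 1 identifier, without the 5 rises and 5 falls leading in both lines), the 10 largest each way at a mean of at least 50 FPKM, and in each list the first 3 members and the 4 with the largest ratios; a few of these are not reported here. A few other list members, FAS, CALR, CANX, MCM3, MCM6, MCM7, PDIA6 and E2F1 among them, and DNAJB9 were named after their values were seen. Promoters from RefSeq matched 9858 measured genes. Alternatives were other pseudocounts, filters, scalings and thresholds and removal of a trend on GC content and transcript length.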

Additional observations from a re-analysis of the deposited data

Results flagged for a closer look

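Among the genes named for rank (the largest rises and falls, and the abundant genes) with a mean of at least 1 FPKM in the libraries labelled HT29, 5 differed in one direction in LIM1215 and in the other in HT29. The levels of VIL1 and LGALS4 in those libraries go against their label, while 6 of the 11 epithelial markers exceeded 1 FPKM there. The values are log2 ratios of knockdown over control, and the difference is LIM1215 minus HT29. With 1 library a group, none of these differences was tested. GPR157 had 1.90 in LIM1215 and −1.38 in HT29, a difference of 3.28, from an estimated 1742 and 612 fragments in the HT29 libraries. CCL20 had −2.90 and 0.42, a difference of −3.32, with only an estimated 12.6 and 21.7 fragments in HT29. MDGA1 had −1.52 and 0.39, a difference of −1.91. ZNF774 had 1.29 and −0.00132, a difference of 1.29, so its HT29 ratio was near 0. TSPAN1 had 0.91 and −0.34, a difference of 1.25, and did not pass 2-fold in either line.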

How the results depend on the processing

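No paired analysis was possible because the comparison within LIM1215 had 1 library a side, and for the same reason no replicate could be left out. A fit over both lines with the line as a block was not run. The counts moved with the pseudocount, the filter and the threshold. With a pseudocount of 0.1 in place of 1, 211 genes rose and 223 fell past 2-fold in LIM1215, and 39 and 65 did so in both lines. A pseudocount of 5 left 24 and 28, with 7 and 16 in both lines, and the log2 ratio of TMEM161A was −1.81. A mean FPKM of at least 5 left 59 rises and 63 falls, and a 1.5-fold threshold gave 657 and 614, with 192 and 237 in both lines. No scaling moved the median of all genes by more than 0.1. Of the 68 named genes past 2-fold, 40 stayed past it under every setting whose filter kept them. Some of these, such as ARRDC4 and CSAG2, did not pass the filter of a mean FPKM of at least 5. The other 28 lost it with the pseudocount of 5, PLCD3 and MXD4 among them, which also lost it under other scalings. None of the named genes past 2-fold changed sign. Of the 40 list medians 34 kept their sign under every setting. The other 6 changed sign under at least 1 of them: G1 cyclins, hypoxia, goblet cell genes, integrins and epithelial-mesenchymal genes, actin turnover and TGF-beta response. The cause of these changes was not tested. Depth limits the scarce genes: CDH16, COX6B2 and CCL20, among others, rested on fewer than 50 estimated fragments in at least 1 LIM1215 library.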
